A study of Mus musculus with 5 samples.

Results

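The TGF-beta, BMP and Wnt signalling genes are 53 mouse genes, listed by name, that span ligands, receptors, intracellular transducers, inhibitors and DNA-binding factors of these pathways. All 53 were found among the 21951 protein-coding genes of the GENCODE vM21 annotation of mm10. The data are 4 ChIP-seq peak lists from wild type C57BL/6 fibroblast-like synoviocytes (FLS), the fibroblasts that line the joint, cultured from mouse limbs. The cells, at passage 3, had been left untreated or given 10 ng/mL TNF for 16 h, and the antibody was directed at SOX4 or at p65 (RELA), so that each list is named here by its antibody and treatment. SOX4 is a SOX-family DNA-binding factor and RELA a subunit of NF-κB, which TNF activates. DNA of 3 cultures was pooled into 1 library per condition, so that there was no replicate and no test between conditions. The same input library, from untreated FLS, served as the control for each list. The lists give binding and no expression, so the FLS label was not checked against marker genes.

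TGF-beta, activin and BMP ligands bind pairs of serine/threonine kinase receptors, which phosphorylate SMAD proteins that enter the nucleus together with SMAD4. Wnt ligands bind Frizzled receptors with LRP co-receptors and protect beta-catenin from its destruction complex, after which it joins the TCF/LEF factors on DNA. TCF/LEF factors and SOX4 both bind DNA through an HMG box, and the short words they recognise resemble each other. In the joint lining these pathways are known for their part in matrix production, fibroblast growth and the balance of cartilage and bone.

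A gene was said to hold a peak when the summit, the peak's highest point, lay in its body or at most 50 kb upstream of its start. By this rule 7 of the 53 genes held a peak in any list, namely Tgfbr3, Smad1, Smad4, Wnt5b, Lrp5, Tcf7l1 and Tcf7l2. Over all protein-coding genes the share was 9.98%, against 13.2% of the listed genes (Wilson 95% interval 6.55% to 24.8%, for counting error only). The other 46 genes held none. The 7 genes had 12 peaks at 8 separate sites, 5 of which were in RELA TNF alone. The sites at Tcf7l2 and at one place upstream of Tgfbr3 each had a summit in SOX4 TNF, RELA untreated and RELA TNF.

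The sequences around the Tgfbr3, Tcf7l1 and Tcf7l2 summits are shown first, since they differ in how far they recur elsewhere. Each window spans 50 bases on either side of the summit on the mm10 plus strand. It is centred on the RELA TNF summit, or on the SOX4 TNF summit for the distal Tgfbr3 site, which had no RELA peak. Capitals mark bases in a run of at least 15 that recurs, on either strand, in the summit window of another RELA TNF peak elsewhere in the genome. This length was chosen after the windows had been read.
Tgfbr3, chr5:107311844-107311944: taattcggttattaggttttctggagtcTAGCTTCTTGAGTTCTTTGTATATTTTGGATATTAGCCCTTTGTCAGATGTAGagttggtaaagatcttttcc
Tgfbr3 distal, chr5:107334159-107334259: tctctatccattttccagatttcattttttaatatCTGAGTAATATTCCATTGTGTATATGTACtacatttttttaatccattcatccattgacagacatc
Tcf7l1, chr6:72750443-72750543: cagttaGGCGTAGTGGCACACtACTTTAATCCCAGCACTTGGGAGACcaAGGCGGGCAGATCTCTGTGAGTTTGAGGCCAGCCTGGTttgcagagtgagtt
Tcf7l2, chr19:55892206-55892306: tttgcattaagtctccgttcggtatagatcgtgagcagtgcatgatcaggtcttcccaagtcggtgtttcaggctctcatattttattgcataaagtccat

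The Tcf7l2 window had no capital base, and it was the one window of the 8 sites that shared no run of 15 bases with any other RELA TNF window. The Tcf7l1 window shared such a run with 150 of the 2501 other RELA TNF windows. For the Smad1, Smad4, Lrp5 and Wnt5b windows, which are not shown, the numbers were 56, 152, 165 and 216. The proximal Tgfbr3 window shared one with 12 windows, and the distal Tgfbr3 window with 11 of all 2502. Recurrent runs were common in the list as a whole, in 80.3% of all RELA TNF windows, and the median window shared a run with 8 others. The contrast depended on the length of the run. With runs of 12 bases the Tcf7l2 window shared one with 6 others, beside a median of 24.5, and 99.2% of all RELA TNF windows shared one. The summit base was soft-masked, which marks repetitive sequence in the reference, at 7 of the 8 sites, all but Tcf7l2. Soft-masked summits made up 74.9% of RELA TNF and 56.2% of SOX4 TNF peaks. With soft-masked summits left out, Tcf7l2 was the only one of the 53 genes that held a peak in any list. This was 1.89% (0.334% to 9.94%), against 2.93% of all protein-coding genes. The part of repetitive sequence in the other peaks was not tested. The central 50 bases of each window were found once in the reference at all 12 peaks, as for most peaks of these lists. Windows found more than once made up 7.37% of SOX4 TNF, 16.8% of RELA untreated and 10.8% of RELA TNF peaks.

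Tgfbr3 encodes betaglycan, a co-receptor that presents TGF-beta ligands to the signalling receptors, and it held 4 of the 12 peaks. At the proximal site, 22.3 kb upstream of the gene start on chromosome 5, the fold enrichment over background was 9.91 in SOX4 TNF, 8.09 in RELA untreated and 24.3 in RELA TNF, and SOX4 untreated had no peak. The RELA TNF peak was the highest at any of the listed genes. It spanned 107311868 to 107311934, and 93.8% of the RELA TNF peaks had a lower fold enrichment. The SOX4 TNF and RELA TNF summits fell on the same base, and the RELA untreated summit lay 12 bp away. The RELA fold enrichment was 3.00 times as high with TNF as without, and 37 of the 464 sites with a RELA summit in both conditions had a larger ratio. The median ratio of these sites was 1.21. The site also lies 19265 bp upstream of Brdt, a testis bromodomain gene transcribed the other way, whose start is nearer than that of Tgfbr3.

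The distal Tgfbr3 site lies 44.6 kb upstream of the gene, close to the limit of 50 kb, and in an intron of Brdt. It had a peak in SOX4 TNF alone, from 107334190 to 107334241, with a fold enrichment of 5.10. Only 5.34% of the SOX4 TNF peaks were lower. No summit of either RELA list lay within 22 kb of it, the nearest being that of the proximal site at 22303 bp.

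Tcf7l2, which encodes a TCF/LEF factor that carries beta-catenin to Wnt target genes, held 3 peaks at 1 place in an intron. Their summits lay within 9 bp of each other, 150436 bp into the gene for RELA TNF and 1096 bp from the nearest annotated transcript start inside it. The fold enrichment was 10.9 in SOX4 TNF, 8.15 in RELA untreated and 8.48 in RELA TNF, and SOX4 untreated had no peak there. For RELA the values without and with TNF differed by 0.331, a ratio of 1.04. Fold enrichments came in steps, of 0.427 in RELA untreated and 0.499 in RELA TNF, on which 78.4% and 79.9% of the peaks lay within 0.02 of a step, so that this difference was smaller than 1 step. Unlike at Tgfbr3, the SOX4 TNF value was the largest of the 3, and 71.1% of the SOX4 TNF peaks were lower. Values of different antibodies come from separate libraries, so this order does not rank SOX4 against RELA binding. A ratio above that of Tcf7l2 was seen at 364 of the 464 RELA sites.

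**Figure D1:**
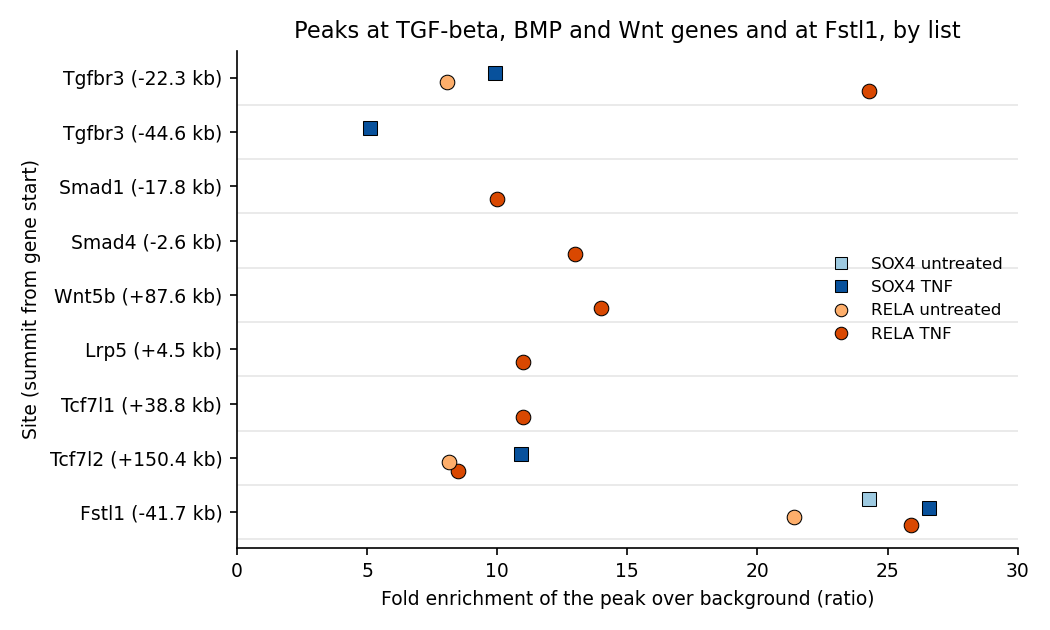
Fold enrichment over background (x axis, ratio, from 0) of each peak at the 8 sites and, for comparison, at Fstl1 (rows, with the distance of the summit from the gene start). Squares are SOX4 and circles RELA, pale without and dark with TNF; the RELA TNF peak at Tgfbr3, at 24.3, stands apart from the values of 5.10 to 14.0 at the other peaks of the listed genes.

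The remaining 5 genes held RELA TNF peaks alone. Smad1 encodes a SMAD activated by BMP receptors. Its peak lay 17.8 kb upstream on chromosome 8, and the fold enrichment was 9.98. Smad4 encodes the SMAD that the TGF-beta and BMP branches have in common. Its peak (chromosome 18, 73706395 to 73706460) lay 2.64 kb upstream, the nearest of the 12 to the start of its gene, and the fold enrichment was 13.0. The nearest SOX4 summit, with and without TNF, lay 215829 bp from the Smad4 summit. From the Smad1 summit it lay 2223585 bp away with TNF and 2926709 bp without, so that no SOX4 peak stood beside either SMAD gene.

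Wnt5b encodes a Wnt ligand that mostly signals without beta-catenin. Its RELA TNF peak on chromosome 6 reached 14.0, the second highest value at the listed genes. The summit lay in an intron, 87.6 kb from the gene start and 7317 bp from the nearest annotated transcript start inside the gene. It also lay within 50 kb upstream of Adipor2 and of Fbxl14, whose start, 22965 bp away, is nearer than the Wnt5b gene start. Lrp5 encodes a Wnt co-receptor, and its peak lay in an intron 4.49 kb after the start on chromosome 19 and had a fold enrichment of 11.0. The same summit was also within 50 kb upstream of 1810055G02Rik. Tcf7l1 encodes a TCF/LEF factor known mostly as a repressor. Its intronic peak lay 38.8 kb after the start (chromosome 6, 72750470 to 72750524), and its fold enrichment was likewise 11.0.

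The 7 RELA TNF peaks at the listed genes had fold enrichments from 8.48 to 24.3 with a median of 11.0, and the median of all 2502 RELA TNF peaks was 9.62. Apart from Tgfbr3, they were from the middle of the list, with between 29.3% (Tcf7l2) and 76.1% (Wnt5b) of its peaks lower. Their widths of 49 bp to 67 bp were close to the list's median of 60.0 bp. None lay in an exon of its gene. There were 4 in introns and 3 upstream, and for 5 of the 7 genes the gene's own start was the nearest start of a protein-coding gene, the exceptions being Tgfbr3 and Wnt5b. This compares gene starts alone, and at Wnt5b a transcript start inside the gene was nearer than the Fbxl14 start. These counts of position have no background of all RELA TNF peaks beside them, so they do not set these peaks apart.

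**Figure D2:**
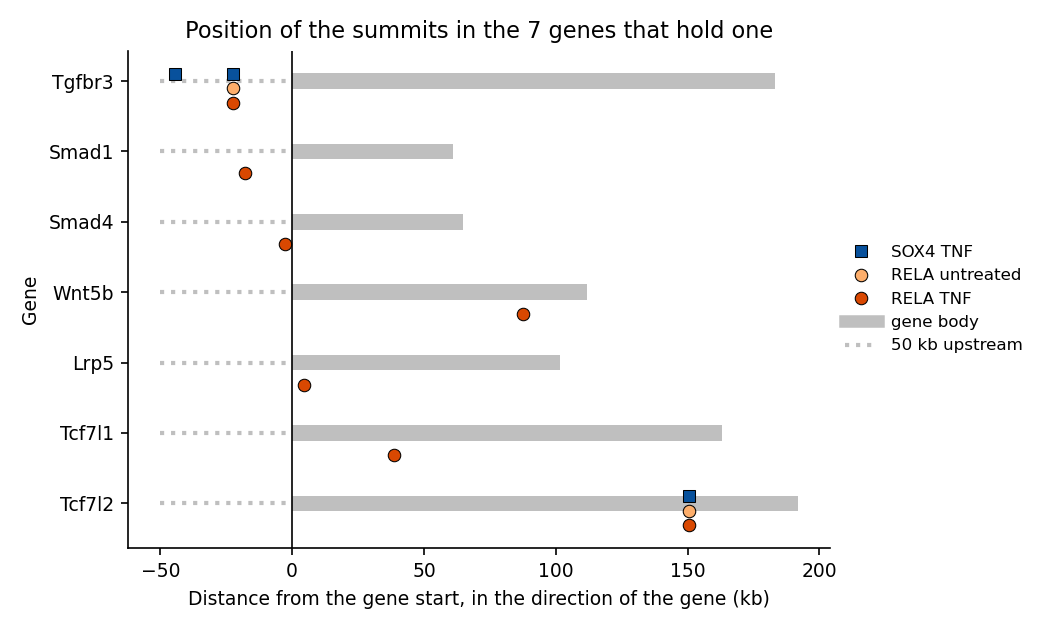
Position of each summit along the 7 genes that held one, in kb from the gene start (x axis, negative values upstream, to scale). Grey bars are gene bodies, dotted lines the 50 kb upstream, and points the summits of each list; the summits of 3 lists coincide at Tcf7l2, 150436 bp into the gene, and 22.3 kb upstream of Tgfbr3.

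By list, SOX4 untreated had a summit at 0 of the 53 genes (upper bound 6.76%), against 0.825% of all protein-coding genes. SOX4 TNF had one at 2 genes, Tgfbr3 and Tcf7l2, or 3.77% (1.04% to 12.8%), against 2.03%. RELA untreated had one at the same 2 genes, against 1.51% of all genes. RELA TNF had one at all 7 genes, or 13.2%, against 9.25%. The SOX4 TNF and RELA TNF summits lay within 50 bp of each other at Tgfbr3 and Tcf7l2, and 1.46% of all genes held such a pair. By this assignment, every one of these background shares fell within the interval of the listed genes. The call depended on the assignment. When each summit was given instead to the nearest start of a protein-coding gene, at any distance, 13 of the 53 genes had a RELA TNF summit (24.5%, 14.9% to 37.6%), against 8.42% of all genes, which lies below that interval. These 13 were without Tgfbr3 and Wnt5b and included 8 genes that held no peak by the first rule, namely Acvr2a, Bmp2, Ctnnb1, Dkk2, Inhba, Nog, Sfrp1 and Tgfbr2, whose summits lay 62.5 kb (Sfrp1) to 1510 kb (Acvr2a) from the gene start. Peaks in a list with TNF and none without it were seen at 5 of the 7 genes with a RELA TNF summit. For SOX4 it was 2 of 2. Of all 21951 protein-coding genes, 2031 held a RELA TNF and 332 a RELA untreated summit. For SOX4 the numbers were 445 and 181, so that most genes with a TNF summit of either antibody had none without TNF. The exact share of such genes is not given here, so the counts do not set the listed genes apart. All 4 lists differ in length, from 192 peaks in SOX4 untreated and 543 in SOX4 TNF to 561 in RELA untreated and 2502 in RELA TNF, and a peak that is not listed can still have signal below the authors' threshold.

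**Figure D3:**
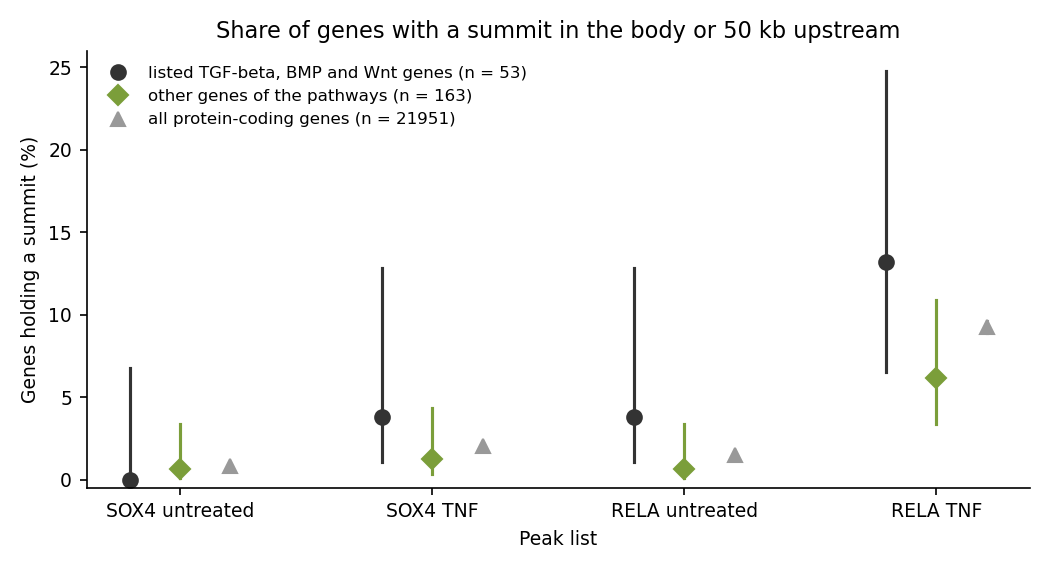
Share of genes that held a summit of each list (y axis, percent), for the 53 listed genes, 163 other genes of the same pathways and all 21951 protein-coding genes. Points are shares and bars Wilson 95% intervals for counting error; in RELA TNF the shares were 13.2%, 6.13% and 9.25%.

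Longer genes have more room for a summit, and the listed genes are long, with a median of 61.1 kb against 17.4 kb for all protein-coding genes. Each of the 7 genes that held a peak was at least 61.1 kb long. None of the 25 listed genes under 50 kb held a peak, and of all genes 6.67% of those under 20 kb and 10.3% of those from 20 to 50 kb held one in any list. From 50 to 100 kb, 2 of 12 listed genes held a RELA TNF summit (16.7%, 4.70% to 44.8%), and 12.6% of all genes of that length did. From 100 to 200 kb it was 5 of 14 (35.7%, 16.3% to 61.2%) against 16.2%, which lies just below that interval. In the same class, SOX4 TNF and RELA untreated each had a summit at 2 of 14 (14.3%, 4.01% to 39.9%), both times at Tgfbr3 and Tcf7l2, against 3.55% and 3.01% of all genes, also below the interval. The 4 lists were each compared in 5 length classes, and the intervals are not adjusted for that number. Over 200 kb, neither Bmpr1b nor Ltbp1 held one, against 26.4%. If the listed genes had held RELA TNF summits at the shares of their length classes, 6.29 of them would have, beside the 7 seen. The same sum gave 1.36 genes for SOX4 TNF, 1.07 for RELA untreated and 0.523 for SOX4 untreated, beside 2, 2 and 0. Per length of sequence, the listed genes with their upstream regions had 1.03 RELA TNF summits per Mb and all protein-coding genes 0.927. For SOX4 TNF the values were 0.441, from 3 summits, and 0.215.

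**Figure D4:**
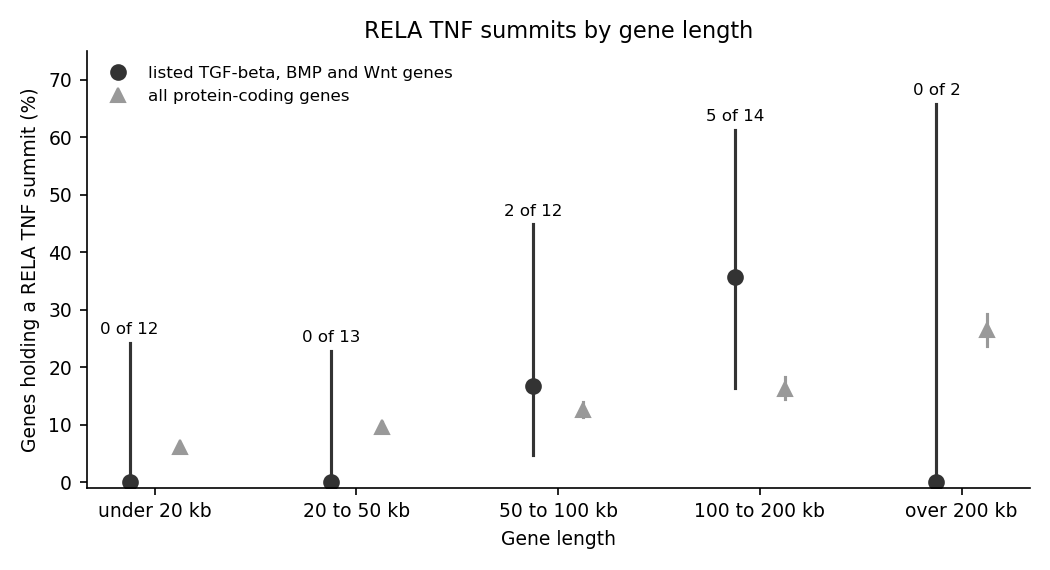
Share of genes that held a RELA TNF summit (y axis, percent) by gene length (x axis), for the listed genes and all protein-coding genes. Points are shares, bars Wilson 95% intervals, and labels the number of listed genes with a summit; for all genes the share rises from 6.05% under 20 kb to 26.4% over 200 kb.

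The genes without a peak are given here by their role. With 9.98% of all genes holding a peak in any list, groups of this size are too small for a count of 0 to set them apart. None of the 8 ligands of the TGF-beta, activin, BMP and GDF group held one (Tgfb1, Tgfb2, Tgfb3, Inhba, Bmp2, Bmp4, Bmp6 and Gdf5). Among the 10 receptors of this branch, Tgfbr3 was the single gene with a peak, and Tgfbr1, Tgfbr2, Bmpr1a, Bmpr1b, Bmpr2, Acvr1, Acvr1b, Acvr2a and Acvr2b held none. Smad2, Smad3, Smad5 and Smad9 held none, nor did the inhibitory Smad6 and Smad7 or Skil, which encodes a repressor that binds SMADs. The latent TGF-beta binding proteins Ltbp1 and Ltbp2 and the BMP antagonists Nog and Grem1 held none either. In the Wnt branch, no peak was held by Wnt5a, by the receptors Fzd1, Fzd2, Fzd7 and Ror2, by the co-receptor Lrp6 or by the secreted proteins Dkk1, Dkk2, Dkk3, Sfrp1 and Sfrp2. The same was true of Ctnnb1, which encodes beta-catenin, of Axin1, Axin2, Apc and Gsk3b of its destruction complex, and of Tcf7 and Lef1. In all, 3 of 31 TGF-beta and BMP genes and 4 of 22 Wnt genes held a peak, beside the 9.98% of all genes, and the branches were not tested against each other.

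For the 46 genes with no peak, the distance from the gene or its upstream region to the nearest summit of any list ranged from 12.5 kb to 2040 kb, with a median of 196 kb. A further 50 kb on either side would have added 6 genes, each with a RELA TNF summit alone. The share of all protein-coding genes with that wider limit was not computed, so this count has no background beside it. Just outside the limit lay a summit 62.5 kb upstream of Sfrp1, a secreted Wnt inhibitor, with a fold enrichment of 13.5. Summits 79.6 kb upstream of Tgfbr2, the ligand-binding TGF-beta receptor, and 91.9 kb upstream of Inhba, a subunit of activin, had fold enrichments of 15.0 and 13.2. That of Smad9, 81.4 kb upstream, had 10.5. Summits past the end of the gene lay 17.1 kb from Gdf5, with a fold enrichment of 18.0, and 19.6 kb from Apc, with 8.48.

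**Figure D5:**
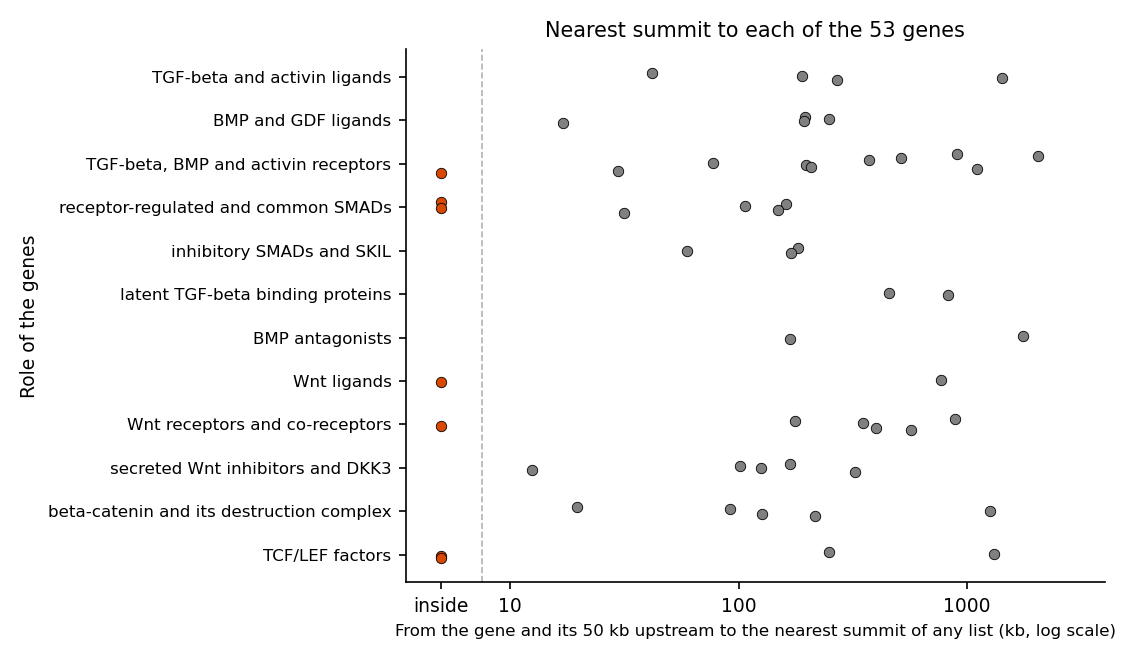
Distance from each of the 53 genes, with its 50 kb upstream, to the nearest summit of any list (x axis, kb, log scale), by role of the gene (rows). Orange points marked inside are the 7 genes that held a summit; the 46 grey points run from 12.5 kb to 2040 kb.

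The 163 other genes of these pathways were counted by the same rule. A RELA TNF summit was held by 10 of them (6.13%, 3.37% to 10.9%), a SOX4 TNF summit by 2, and a summit of either untreated list by 1. Fstl1, which encodes a secreted glycoprotein of the follistatin family, was the one gene of all 216 with a peak in each of the 4 lists. Its site lies 41.7 kb upstream of the gene on chromosome 16. The fold enrichment there was 24.3 for SOX4 without TNF and 26.6 with it, and 21.4 for RELA without TNF and 25.9 with it. With TNF it was 1.10 times as high for SOX4 and 1.21 times for RELA. At least 95.4% of the peaks of each list were lower, and the summits lay within 5 bp of each other on bases that are not soft-masked. Zfyve9, which encodes a scaffold that brings SMADs to the receptors, held a SOX4 TNF peak alone, with a fold enrichment of 4.75. RELA TNF peaks alone were held by Celsr2, Csnk1e, Csnk1g3, Fzd3, Gdf11, Ltbp4, Prickle2, Wnt6 and Znrf3. These 10 genes other than Fstl1 were named after their values had been seen.

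The Tcf7l2 and Fstl1 windows were searched for what they have in common, after they had been read. The longest identical run was 14 bases, shown in capitals in both RELA TNF windows.
Tcf7l2, chr19:55892206-55892306: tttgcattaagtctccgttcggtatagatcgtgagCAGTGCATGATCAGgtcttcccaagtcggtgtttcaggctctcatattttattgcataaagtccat
Fstl1, chr16:37735083-37735183: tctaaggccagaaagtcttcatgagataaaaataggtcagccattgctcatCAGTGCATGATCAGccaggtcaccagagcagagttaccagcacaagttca

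The run ended 2 bases before the Tcf7l2 summit and began 1 base after the Fstl1 summit. It was present without a mismatch in 3 of 192 SOX4 untreated, 4 of 543 SOX4 TNF, 4 of 561 RELA untreated and 4 of 2502 RELA TNF windows. With up to 1 mismatch the numbers were 5, 9, 6 and 8. These counts include the windows from which the run was taken, and the lists share places, so they are a description and no test. The exact run stood at 4 places with TNF, and the protein-coding genes assigned to them were Tcf7l2, Fstl1, Add1, Grk4 and Prkd1, of which the last 3 were named after their values had been seen. No other peak of the 53 genes held it, even with 1 mismatch.

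The windows were also searched on both strands for short words of the factors. The SOX words had CAA in the middle, preceded by a pair of bases that were each adenine or thymine, and followed by adenine or thymine and then guanine. They were absent at Tcf7l2 and present at the proximal Tgfbr3 site in all 3 lists, as TACAAAG. This was 1 of 3 SOX4 TNF and 1 of 7 RELA TNF windows at the listed genes, and 18.2% and 15.9% of all windows of these lists held a SOX word. The TCF/LEF words were CTTTGAT and a variant ending in adenine, CTTTGAA, and both are the reverse complement of a SOX word. They were in none of the 12 windows, against 5.16% of SOX4 TNF and 4.48% of RELA TNF windows. The SMAD word CAGACA was found once, at the distal Tgfbr3 site, against 6.08% of SOX4 TNF windows. A match is a description of these letters and not a site. The NF-κB consensus was in none of the 12 windows and was in 0.440% of all RELA TNF windows.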

How the data were processed

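The 4 peak lists were taken whole as deposited. For each, the authors aligned reads (50 bases, single-end) to mm10. Peak calling used the MACS method of Strand NGS 4.0, named MACS2 in the submitters' processing notes, with the single input library as control. Fragments were set to 300 bases and the p-value limit was 1e-05. The deposited P and Q scores are the −log10 of the p-value and q-value of each peak, and the deposited fold change is a ratio, the fold enrichment over the local background. Reads, coverage and the input's own values were not analysed here, so depth is known only as the number of peaks, and Wilson 95% intervals cover counting error only.

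Summits were assigned with GENCODE vM21 to every gene whose body or 50 kb upstream held them. Sequence and soft-masking were read from GRCm38.p6 and copies of windows were counted over its 66 primary sequences. Gene lengths were compared by classes with limits at 20, 50, 100 and 200 kb. Of the 163 other pathway genes, 1 was matched by a synonym. Described genes are all listed genes with a summit and the other pathway genes with SOX4 TNF and RELA TNF summits or with at least 3 lists. The sequences of some windows are not reported here. Runs of 15 bases and the run common to Tcf7l2 and Fstl1 were chosen after the windows had been read. The genes and lists were chosen with earlier results of these data known. The assignment was tested with summits planted at known offsets of annotated genes. The copy count and the shared runs were tested on random sequences, and the word search on short typed sequences with the NF-κB word alone. Python 3.11.15, numpy 2.4.6, pandas 2.3.3 and numba 0.67.0 were used.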

Additional observations from a re-analysis of the deposited data

How the results depend on the processing

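No paired analysis was possible because pooled DNA gave a single library for every condition. Among 81 alternative values for 13 results, 45 stayed close to the reported value, 36 moved and 0 reversed. Counts and shares have no direction and could not reverse, and a count of 0 could not fall under a stricter setting. The number that stayed or reversed is therefore no measure of robustness. The runs of 12 and 20 bases were chosen after seeing the data. With them, 8 and 7 of the 8 sites shared a run with another RELA TNF window, beside 7 with 15 bases. The cause of a move was not tested, beyond the fewer peaks or bases that a stricter setting leaves by its construction. The genes with SOX4 TNF, with RELA untreated and with both SOX4 TNF and RELA TNF each fell from 2 to 1, Tcf7l2, with 5 kb upstream, in gene bodies alone and on summits that are not soft-masked. The genes with RELA TNF, and with any list, fell from 7 to 4 in gene bodies (any list over all genes 4.45%). On summits that are not soft-masked they fell to 1 (any list over all genes 2.93%). With 5 kb upstream they fell to 5, without Smad1 and Tgfbr3, which was counted as close. For RELA TNF this was 9.43%, against 4.70% of all genes. They rose to 13, without Tgfbr3 and Wnt5b, when each summit was given to the nearest gene start at any distance. For RELA TNF that was 24.5%, against 8.42% of all genes. With that rule the counts for SOX4 TNF, RELA untreated and the pair stayed at 2, but the genes were Acvr2a and Tcf7l2 in place of Tgfbr3 and Tcf7l2. The Tgfbr3 RELA ratio was 5.49 with −log10 q. Shares of all protein-coding genes moved as follows. With a −log10 q of at least 10 they were 0.415%, 1.52%, 1.08% and 8.28% (SOX4 untreated, SOX4 TNF, RELA untreated, RELA TNF). They were 0.433%, 1.06%, 0.820% and 4.70% with 5 kb upstream, 0.387%, 0.961%, 0.733% and 4.14% in gene bodies, and 0.410%, 0.961%, 0.679% and 2.33% on summits that are not soft-masked. With the nearest gene start, the last 3 lists had 2.35%, 1.80% and 8.42%, and with single-copy summits SOX4 untreated had 0.688%.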
